A study of Mus musculus with 9 samples.

Results

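The regulators of G protein signaling described here are 9 of the 24411 gene symbols in a bulk RNA-seq table of mouse macrophage lines: Rgs1, Rgs2, Rgs3, Rgs10, Rgs12, Rgs14, Rgs16, Rgs18 and Rgs19. The family was chosen from the expression values themselves, because Rgs16 was among the largest falls in YS lines against BM lines. The YS against BM values of these genes are therefore given as a description, with no test. All 9 genes passed the filter on low values, but Rgs16 passed it only through the BM lines, so its FL against BM values carry no test either. The other 8 genes are tested in FL against BM and in YS against FL.

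The lines came from C57BL/6 mice: YS lines from yolk sac at E9.5, FL lines from fetal liver at E14.5 and BM lines from adult bone marrow. Each tissue gave 3 lines, and each line was a bulk culture from its own dish or well that had been expanded for a long time in recombinant human M-CSF, the growth factor that all 9 lines share. Cells of more than 1 mouse were pooled to start cultures, and no source says that the lines of a tissue came from separate animals, so p-values measure the spread between these lines only. There was 1 library per line, and expression was given in TPM, a transcript level corrected for gene length and library size.

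All 8 macrophage markers examined reached 1 TPM in every library. No mast cell, B cell, T and NK cell or fibroblast marker reached 1 TPM in any library, while 1 of 7 neutrophil markers (S100a8), 1 of 5 dendritic cell markers (Zbtb46) and 3 of 5 endothelial markers (Kdr, Cdh5 and Pecam1) did so in at least 1. The Fc receptor gene Fcgr1 was the lowest of them in BM lines 1 and 3, at 5.47 and 1.68 TPM, against 42.10 TPM in BM line 2. BM line 2 stood apart in 2 further respects. It held a median of 14.13% of the YS line 2 level over 45 genes that YS line 2 had at 20 TPM or more and the other BM lines below 0.5 TPM. Its 6 erythroid markers summed to 330.07 TPM, with Hba-a1 at 214.99 TPM. FL minus BM differences without this line are given for Rgs1, Rgs2 and Rgs18 and for the partner genes Gng12, Rgs7bp and P2ry12. In bulk RNA, fewer cells of one kind and less RNA per cell cannot be told apart.

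RGS proteins bind the active, GTP-bound alpha subunit of a heterotrimeric G protein and speed its GTP hydrolysis, which ends the signal of a G protein-coupled receptor sooner. The R4 subfamily (here Rgs1, Rgs2, Rgs3, Rgs16 and Rgs18) consists mostly of small proteins built around the RGS domain, the RZ subfamily is represented by Rgs19, and the R12 subfamily by Rgs10, Rgs12 and Rgs14. In macrophages and other leukocytes these proteins are known for tuning the response to chemokines and other ligands of receptors that couple to Gi and Gq.

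Rgs16 encodes an R4 protein that acts on Gi and Gq alpha subunits and is known as an inducible gene of immune cells. It stood at 218.28, 197.12 and 230.58 TPM in BM lines 1 to 3. In YS lines 1 to 3 it was 0.80, 0.46 and 0.15 TPM. It was listed at 0 in FL lines 1 and 3 and was 0.11 TPM in FL line 2. Every BM line was thus high, and every YS and FL line was below 1 TPM. On the log2(TPM + 1) scale, the scale of all differences given here, the YS minus BM difference of Rgs16 was -7.22, the 5th lowest of the 11753 genes tested, and the FL minus BM difference was -7.70, the 2nd lowest. The size of these differences depends on the pseudocount: with log2(TPM + 0.1) they were -8.74 and -10.71, and with log2(TPM + 4) -5.62 and -5.76. BM line 2 had the lowest Rgs16 level of the BM lines.

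**Figure D1:**
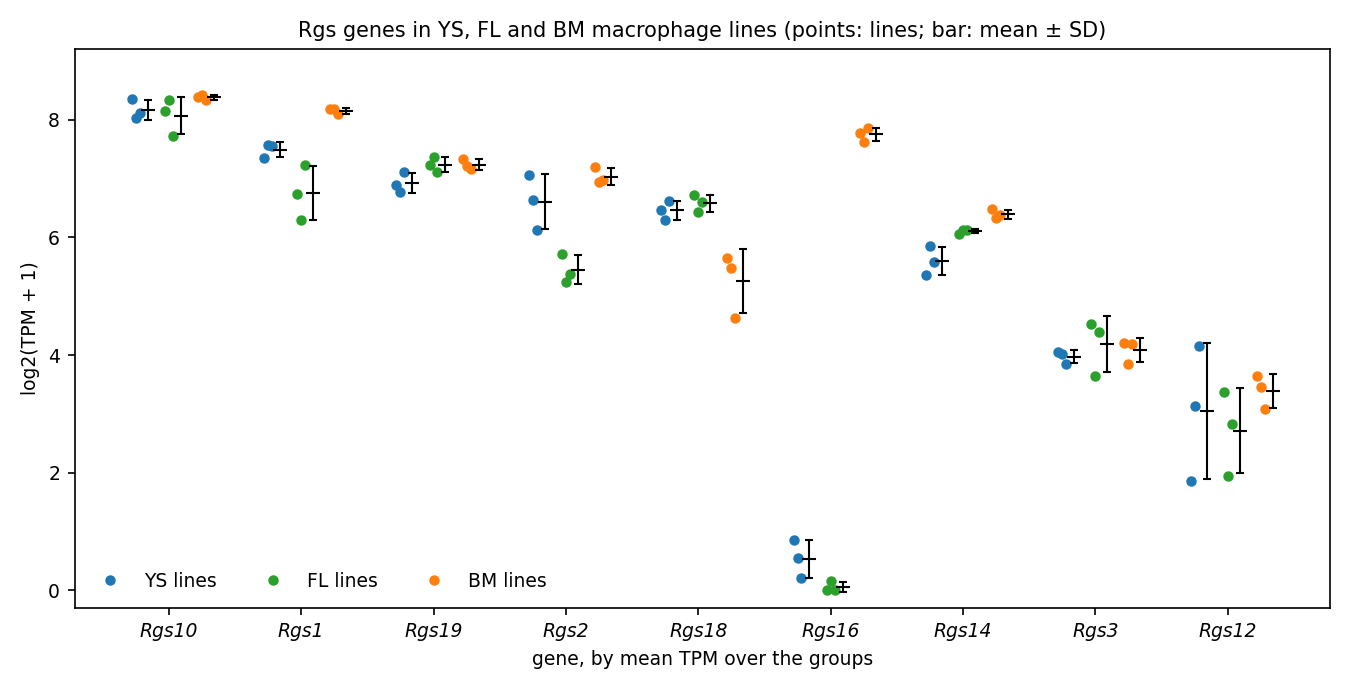
Level of the 9 Rgs genes as log2(TPM + 1), with genes on the horizontal axis ordered by mean TPM over the groups. Points are the 3 lines of each tissue (YS blue, FL green, BM orange), and black bars are the mean ± SD of the 3 lines. Rgs16 is the gene whose BM lines (197.12 to 230.58 TPM) lie far from its YS and FL lines (at most 0.80 TPM), while Rgs10 is near the top in all lines.

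Rgs1, an R4 regulator known for dampening chemokine receptor signals in lymphocytes and macrophages, was highest in BM lines and lowest in FL lines. Its level was 288.21, 291.49 and 273.40 TPM in BM lines 1 to 3, 161.74, 189.46 and 187.58 TPM in YS lines, and 105.48, 77.75 and 149.21 TPM in FL lines. No FL line reached the lowest YS line, and no YS line reached the lowest BM line. In FL against BM lines Rgs1 fell by 1.40 on the log2 scale (SE 0.21, n = 3 lines per group, adjusted p = 0.00288, limma with Benjamini-Hochberg adjustment over the 11753 genes tested). A gene was called when the adjusted p was under 0.1 and the change exceeded 2-fold. The YS minus FL difference of Rgs1 was 0.74 (SE 0.21, limma adjusted p = 0.073), which is under 2-fold and was not called. The 3 BM lines were close together, with an SD of 3.39% of the mean, against 32.5% in FL lines and 8.63% in YS lines.

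Rgs2, the R4 member known for its preference for Gq alpha subunits, kept the same order of groups. BM lines 1 to 3 had 145.62, 121.45 and 124.48 TPM, FL lines had 51.74, 36.96 and 40.55 TPM, and YS lines had 132.45, 98.84 and 68.78 TPM. The FL lines were all below the lowest YS line, and YS line 1 lay among the BM lines. Rgs2 fell by 1.59 in FL against BM lines (SE 0.23, limma adjusted p = 0.00269). It was higher in YS than in FL lines by 1.16 (SE 0.23, limma adjusted p = 0.0352), the only member called in that comparison. This call was lost without YS line 1 (0.94, under 2-fold), without FL line 2 (1.06, limma adjusted p = 0.109), without FL line 3 (1.13, limma adjusted p = 0.116) and in a fit without the BM libraries (1.16, limma adjusted p = 0.146).

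Rgs18, an R4 regulator known from megakaryocytes and platelets and also expressed in myeloid cells, ran the opposite way. It stood at 49.44, 43.43 and 23.78 TPM in BM lines 1 to 3, while FL lines had 104.57, 84.95 and 95.62 TPM and YS lines had 87.35, 77.63 and 97.38 TPM. All 3 BM lines were below all YS and FL lines, whose ranges overlapped each other. In FL against BM lines Rgs18 rose by 1.33 (SE 0.24, limma adjusted p = 0.00712), and the YS minus FL difference was -0.12 (SE 0.24, limma adjusted p = 0.781). Of 8 megakaryocyte and platelet markers, 5 reached 1 TPM in some library. Their sum ran from 39.37 to 394.03 TPM in BM lines, from 616.08 to 1730.29 TPM in FL lines and from 262.06 to 2139.90 TPM in YS lines, most of it Pf4, the platelet factor gene (38.46 to 2121.79 TPM). Itga2b and Gp1bb stayed under 1 TPM in every library, whereas Itgb3 was 31.31, 14.58 and 2.47 TPM in YS lines 1 to 3, Gp9 reached 3.78 TPM, Ppbp 1.46 TPM and Gp1ba 1.16 TPM, each highest in a YS line. The part of that marker sum in the Rgs18 result was not tested.

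Without BM line 2, the FL minus BM differences were -1.38 for Rgs1, -1.64 for Rgs2 and 1.44 for Rgs18, and all 3 were still called. The other 5 tested members were again not called, and the YS minus FL call of Rgs2 remained (limma adjusted p = 0.0653). Over all 19 alternatives tried, the difference ran from -1.64 to -1.17 for Rgs1, from -1.72 to -1.49 for Rgs2 and from 1.02 to 1.53 for Rgs18. The highest limma adjusted p among them was 0.0278, for Rgs18. The sum of the 5 endothelial markers was also lower in BM lines, at 0.08 to 1.70 TPM in BM lines, 18.88 to 51.78 TPM in FL lines and 5.37 to 56.04 TPM in YS lines. Kdr supplied most of it in FL lines (17.37 to 50.36 TPM), Pecam1 reached 8.17 TPM in YS line 2, and Emcn was listed at 0 throughout. The part of these markers in the 3 results was not tested.

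Rgs3, an R4 gene with several long and short isoforms, was low in every tissue. It had 15.56, 15.16 and 13.39 TPM in YS lines 1 to 3, 22.17, 11.46 and 19.91 TPM in the FL lines, and 17.50, 13.43 and 17.23 TPM in the BM lines. The ranges of the 3 groups overlapped, and neither FL minus BM (0.10, SE 0.23, limma adjusted p = 0.797) nor YS minus FL (-0.22, SE 0.23, limma adjusted p = 0.582) passed the test. Its FL minus BM difference changed sign when single lines were left out.

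The upstream windows of Rgs16 and Rgs2 show the letters in front of the R4 gene that was near 0 in embryonic lines and of the one that was called in both tested comparisons. Both are RefSeq windows of build GRCm38.p6, from 250 bases before to 50 after the annotated start, written 5′ to 3′ on the gene's strand: Rgs16 at chr1:153740103-153740402 on the plus strand and Rgs2 at chr1:144004100-144004399 on the minus strand. Capitals mark each match, on either strand, to the GC box GGGCGG, the CCAAT box CCAAT or the cAMP response element motif TGACG.
Rgs16: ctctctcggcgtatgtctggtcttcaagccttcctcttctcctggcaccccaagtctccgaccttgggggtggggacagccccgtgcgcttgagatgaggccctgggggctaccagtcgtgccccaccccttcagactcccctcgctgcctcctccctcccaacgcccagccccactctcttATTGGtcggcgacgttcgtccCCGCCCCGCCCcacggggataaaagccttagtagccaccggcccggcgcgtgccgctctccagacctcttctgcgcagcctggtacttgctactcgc
Rgs2: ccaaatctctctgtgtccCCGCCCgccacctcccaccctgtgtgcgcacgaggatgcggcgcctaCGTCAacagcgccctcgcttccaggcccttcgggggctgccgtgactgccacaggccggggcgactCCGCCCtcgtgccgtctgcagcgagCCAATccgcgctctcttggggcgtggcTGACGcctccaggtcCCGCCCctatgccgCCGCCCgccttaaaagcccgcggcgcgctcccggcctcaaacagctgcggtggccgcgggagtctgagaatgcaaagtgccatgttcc
The Rgs16 window held 2 GC boxes that share a base and 1 CCAAT box, with no TGACG. The Rgs2 window held 4 GC boxes, 1 CCAAT box and 2 TGACG sites. Among all 32851 RefSeq windows of this length, 35.7% held a GC box, 37.4% a CCAAT box and 20.8% TGACG. Neither of the printed windows held the TATA box TATAAA, the E box CACGTG, the AP-1 site TGANTCA or the STAT site TTCNNNGAA, which 13.6%, 7.15%, 7.81% and 8.30% of all windows held. RefSeq windows were matched for 6 of the 9 members, 10 windows in all, of which 8 held a GC box. The GC content was 66.0% for Rgs16 and 70.0% for Rgs2, against a median of 52.7% over all windows. These matches describe the letters in the windows only.

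Rgs19, the RZ member, also known as GAIP, which acts on Gi family alpha subunits, had overlapping levels in FL and BM lines. Its level was 149.21, 164.40 and 137.14 TPM in FL lines 1 to 3, 161.15, 147.52 and 141.83 TPM in the BM lines, and 117.47, 108.94 and 136.79 TPM in YS lines. FL and BM lines overlapped, while each YS line was below each FL and BM line, YS line 3 only just. The FL minus BM difference was below 0.01 in size (SE 0.12, limma adjusted p = 0.996), and the YS minus FL difference was -0.31 (SE 0.12, limma adjusted p = 0.147).

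Rgs10, a small R12 protein known for restraining inflammatory activation of microglia and macrophages, was the most abundant member in all 9 libraries. It had 326.31, 259.38 and 277.79 TPM in YS lines 1 to 3, 284.59, 321.81 and 210.50 TPM in the FL lines, and 332.52, 343.64 and 321.43 TPM in the BM lines. The ranges of the 3 groups overlapped, with FL line 3 the lowest of all and BM line 2 the highest. Neither FL minus BM (-0.31, SE 0.16, limma adjusted p = 0.217) nor YS minus FL (0.10, SE 0.16, limma adjusted p = 0.73) was called.

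Rgs14 encodes a large R12 scaffold with Ras-binding domains and a GoLoco motif that binds inactive Gi alpha subunits. It stood at 40.24, 56.85 and 46.83 TPM in YS lines 1 to 3, 65.85, 68.54 and 68.89 TPM in the FL lines, and 88.13, 79.06 and 82.69 TPM in the BM lines. The groups did not overlap in any pair, with YS lowest and BM highest. The differences were small: FL minus BM was -0.29 (SE 0.13, limma adjusted p = 0.151) and YS minus FL was -0.50 (SE 0.13, limma adjusted p = 0.0624), so neither exceeded 2-fold.

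Rgs12, the other large R12 scaffold with a GoLoco motif, varied more between YS lines and between FL lines than any other member above 1 TPM. It ran from 2.61 TPM in YS line 1 through 7.75 TPM in YS line 2 to 16.76 TPM in YS line 3, whereas FL lines had 9.31, 2.84 and 6.12 TPM and BM lines had 11.46, 10.02 and 7.43 TPM. The SD was 79.2% of the mean in YS lines and 53.1% in FL lines. All 3 groups overlapped, and the differences were within this spread (FL minus BM -0.68, SE 0.56, limma adjusted p = 0.44, and YS minus FL 0.33, SE 0.56, limma adjusted p = 0.73).

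**Figure D2:**
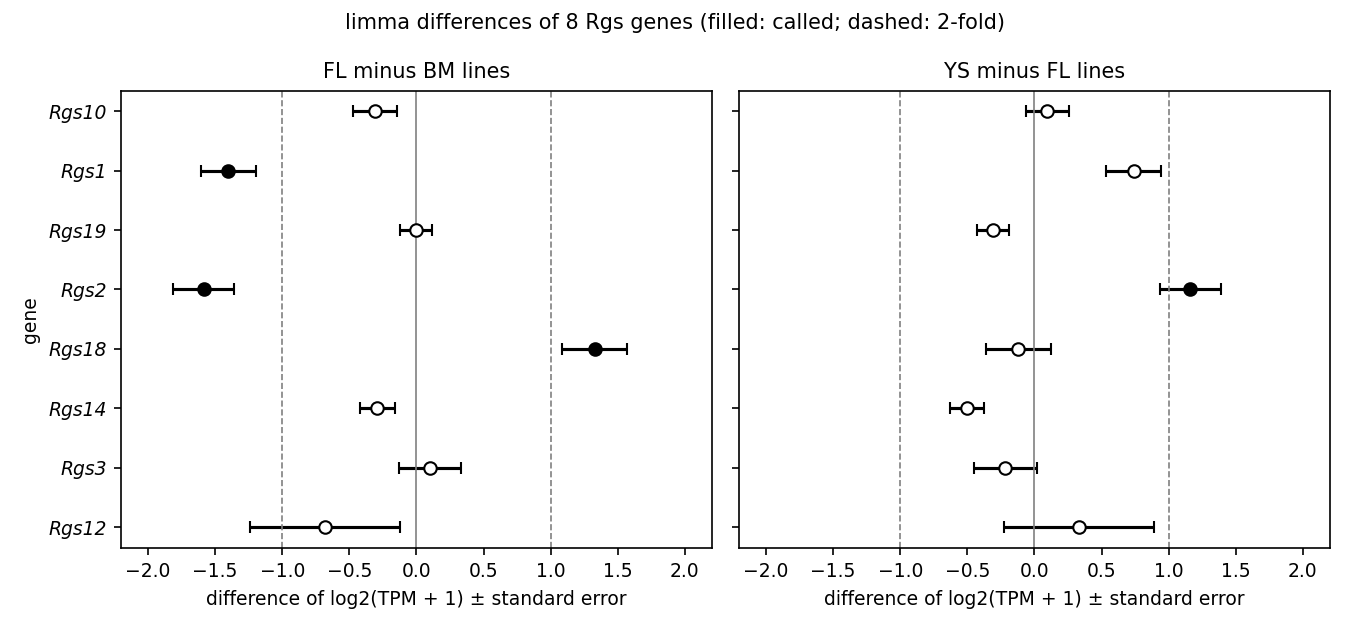
Differences of log2(TPM + 1), with their limma standard errors, for the 8 members other than Rgs16, in FL minus BM lines (left) and YS minus FL lines (right), 3 lines per group. Filled points were called and dashed lines mark a 2-fold change. Rgs1 (-1.40), Rgs2 (-1.59) and Rgs18 (1.33) are filled on the left, and Rgs2 alone (1.16) on the right.

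Counted together, 3 of the 8 members other than Rgs16 were called in FL against BM lines, beside 10.3% of all 11753 genes tested. Of these, 2 were lower in FL lines, beside 4.30% of all genes, and 1 was higher, beside 6.01%. In YS against FL lines 1 of the 8 was called, higher in YS lines, beside 3.79% of all genes called in either direction, 1.95% called higher and 1.85% called lower. The median FL minus BM difference of the 8 was -0.30, beside 0.09 over all genes tested, and the median YS minus FL difference was -0.01, beside 0.02. Under quantile normalization the FL minus BM median over all genes moved to -0.01. With it, 49.96% of the calls in FL against BM lines were higher in FL lines, in place of 58.3%. The groups did not overlap for 4 of the 8 members in FL against BM lines, beside 49.5% of all genes, and for 4 of the 8 in YS against FL lines, beside 26.1%.

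In YS against BM lines, the contrast the choice of the family rests on and which shares its BM lines with FL against BM, 2 of the 9 members lay past the thresholds used for calls, beside 12.8% of all genes. These counts include the gene that chose the family and nothing is read from them. Rgs18 was higher, beside 7.57% of genes, and Rgs16 lower, beside 5.22%. The groups did not overlap for 5 of the 9, beside 49.0% of all genes. As a description, the YS minus BM difference was 1.21 for Rgs18, and among the other members it ran from -0.80 for Rgs14 through -0.66 for Rgs1 and -0.43 for Rgs2 to -0.11 for Rgs3. Without BM line 3 the Rgs18 difference was 0.90, under 2-fold. Over all genes tested the median of this contrast was 0.11, and it moved to -0.01 under quantile normalization, with which 48.69% of the calls were higher in YS lines in place of 59.18%.

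The 9 genes together made up 848.1 ± 35.1 TPM of YS libraries (SD, n = 3), 763.2 ± 32.9 TPM of FL libraries and 1261 ± 46.3 TPM of BM libraries. Without Rgs16, whose values chose the family, the BM sum was 1045 ± 51.0 TPM. Rgs10 supplied 33.9 ± 2.68% of the YS sum, 35.6 ± 6.51% of the FL sum and 26.4 ± 1.15% of the BM sum. Rgs16 was the third most abundant member in each BM line, at 15.8 to 18.9% of the sum, and the least abundant in each YS and FL line. Rgs1 ranked second in all YS and BM lines, whereas Rgs19 ranked second in FL lines 1 and 2. Rgs2 supplied 5.64 ± 0.862% of the sum in FL lines, against 11.7 ± 3.44% in YS lines and 10.3 ± 0.692% in BM lines.

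**Figure D3:**
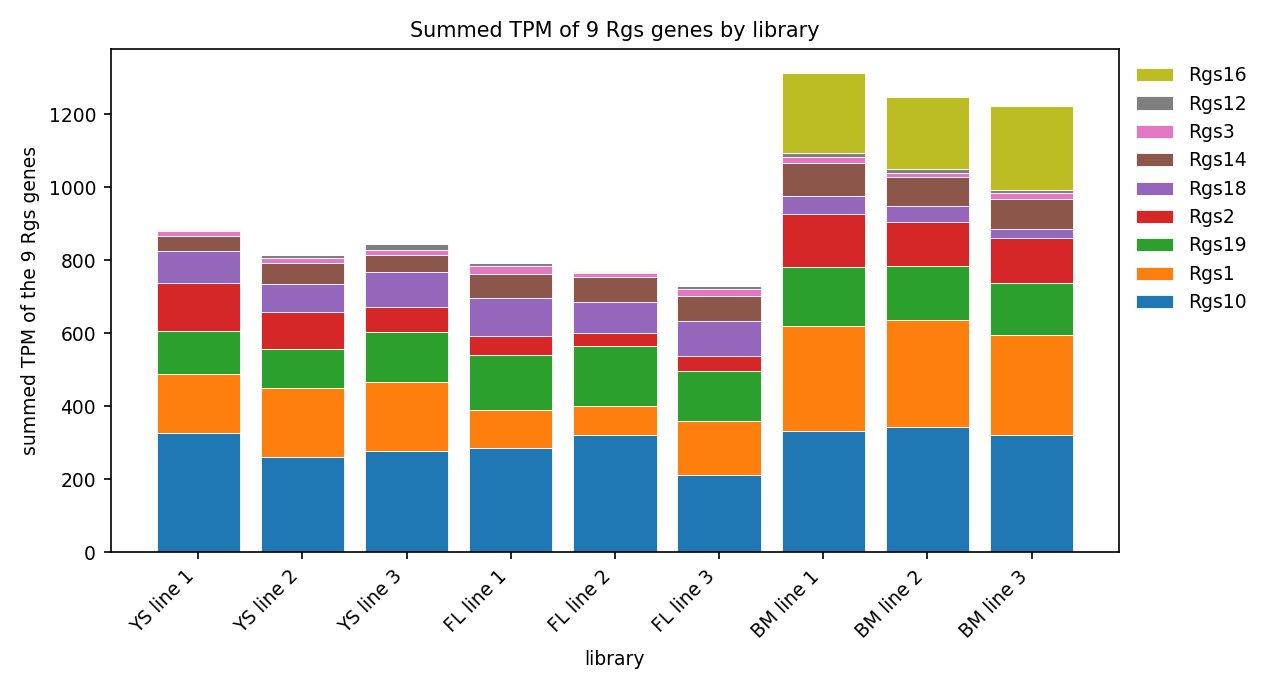
Summed TPM of the 9 Rgs genes in each of the 9 libraries, stacked by gene, 1 bar per line. The BM bars end between 1222.85 and 1312.31 TPM and carry the Rgs16 segment on top, and the YS and FL bars end between 727.94 and 884.53 TPM.

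On chromosome 1, where 4 of the 9 members lie, RefSeq (GRCm38.p6) orders Rgs2, Rgs13, Rgs1, Rgs21 and Rgs18 as 5 consecutive protein-coding genes, and places Rgs16 next to Rgs8 after 29 further coding genes. Within the run of 5, the members differed in direction: Rgs2 and Rgs1 fell and Rgs18 rose in FL against BM lines. Rgs13 and Rgs21, which lie between them, were at most 0.09 TPM in all libraries. Beyond Rgs18, Pla2g4a, the cytosolic phospholipase A2 gene, had the group order of Rgs1 and Rgs2, with an FL minus BM difference of -1.35 (SE 0.26). Its neighbour Ptgs2, the inducible cyclooxygenase gene, was low in FL lines (0.08 TPM, listed at 0, and 0.29 TPM) and differed by -1.87 from BM lines (SE 0.42). Next to Rgs16, Rgs8 reached at most 0.03 TPM. Npl, the next coding gene beyond Rgs8, was 23.30 to 37.45 TPM in BM lines, no more than 0.10 TPM in FL lines, but 3.11 to 34.28 TPM in YS lines, where Rgs16 stayed below 1 TPM. On the other side of Rgs2, the FL minus BM differences were -0.32 for Uchl5, -0.70 for Ro60 and -0.74 for Glrx2, each under 2-fold. Dhx9, beyond Npl, differed by 0.02 between FL and BM lines. These neighbours were picked by position and their values are a description of the stretch.

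**Figure D4:**
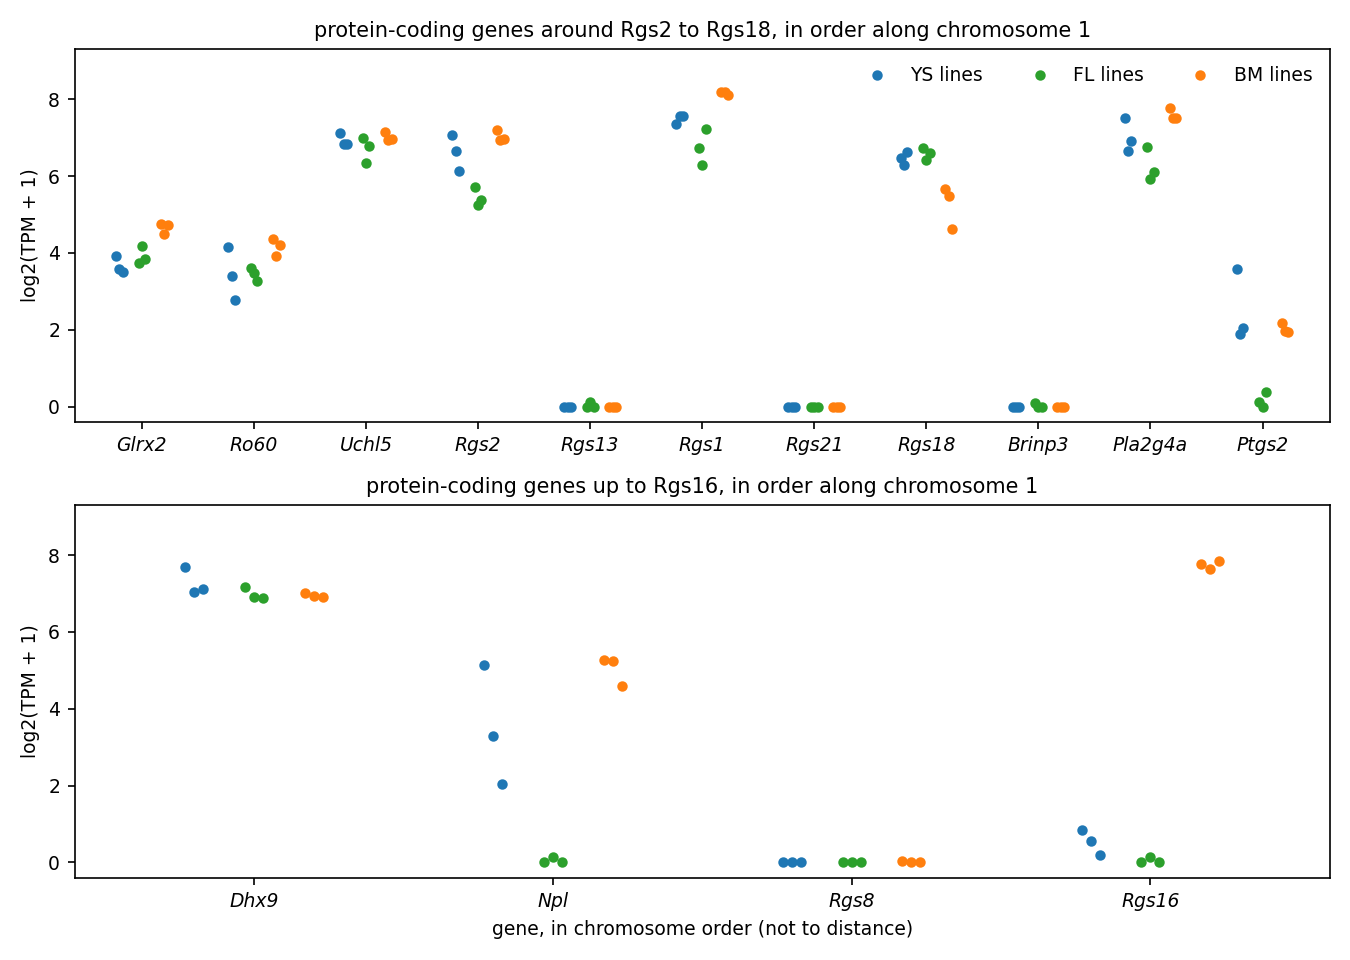
Level as log2(TPM + 1) of protein-coding genes around Rgs2 to Rgs18 (top) and on the Rgs8 side of Rgs16 (bottom), in RefSeq order along chromosome 1 and not drawn to distance. Points are the 3 lines of each tissue (YS blue, FL green, BM orange). Rgs18 has its BM lines lowest while Rgs2 and Rgs1 have them high, and Rgs16 sits beside Rgs8, which is near 0.

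The genes whose profile over the 9 libraries was nearest to that of Rgs16, by the mean absolute difference of centred log2(TPM + 1), were Kirrel3 (0.77), Ctsk (0.85), Ndrg4 (0.91), Marveld1 (1.02) and Vegfc (1.03). Kirrel3, an immunoglobulin family adhesion gene, was 60.92, 50.66 and 65.19 TPM in BM lines 1 to 3 and at most 0.33 TPM elsewhere. Ctsk, the gene of the osteoclast protease cathepsin K, was 333.37, 90.21 and 1270.20 TPM in BM lines and at most 3.24 TPM elsewhere. It thus varied far more between BM lines than Rgs16 did. Vegfc, a lymphatic growth factor gene, was 36.83 to 47.95 TPM in BM lines, listed at 0 in FL lines and at most 1.71 TPM in YS lines. No other member came near Rgs16, the closest being Rgs1 at 2.86. Rgs1 and Rgs2 were nearest to each other among the members, at 0.28, while single genes came nearer: Odc1, Sema4d and Csf2rb2 to Rgs1 (0.12 to 0.13) and Ank, Galnt7 and Myo1e to Rgs2 (0.13 to 0.16). Those nearest to Rgs18 were Plod1, Mtpap and Ccdc91 (0.13 to 0.16). These likenesses over 9 libraries describe profiles that all contain the difference between tissues.

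Of the 12 Rgs symbols outside the 9, 6 were listed at 0 in all libraries and 2 passed the filter. Rgs20, an RZ gene like Rgs19, was 3.01, 1.44 and 2.85 TPM in BM lines, at most 0.09 TPM in FL lines and 0.36 to 0.85 TPM in YS lines, so that it passed the filter only through BM lines (FL minus BM -1.70). Rgs11, an R7 gene, ran from 0.49 to 20.07 TPM among FL lines alone. With the more distant proteins that carry an RGS box, such as the axins and RhoGEFs, 10 of 21 listed genes passed the filter, and none but Rgs20 lay past the thresholds in FL against BM lines. Its difference is a description, since the BM lines alone let it pass the filter, and it was -0.67 with log2(TPM + 4).

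The partners of the RGS proteins were described from 7 lists with 110 genes, of which 63 passed the filter. In FL against BM lines 12 of the 63 were called, beside 10.3% of all genes, with 8 higher (beside 6.01%) and 4 lower (beside 4.30%). Rgs20 is among the 4 and carries no test, since the BM lines alone let it pass the filter. In YS against FL lines 2 were called, 1 in each direction, beside 3.79% of all genes. Without BM line 2 these numbers were 13 and 1. None of the 9 G alpha subunit genes tested, the direct targets of RGS proteins, was called in either comparison. Gnai2, a Gi subunit gene, was the most abundant of them in YS and FL lines, while Gnas, the Gs subunit gene, was above it in all 3 BM lines (827.59 to 918.65 TPM against 802.96 to 843.75 TPM). The Gnai2 FL minus BM difference was 0.38 (SE 0.15, limma adjusted p = 0.116). The median FL minus BM difference of the 9 was -0.03, beside 0.09 over all genes.

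Of 9 beta and gamma subunit genes tested, 2 were called in FL against BM lines, both higher. Gng12, a gamma subunit gene, was 63.19, 64.94 and 45.27 TPM in the FL lines, and 52.90, 34.62 and 51.57 TPM in YS lines. It was listed at 0 in BM lines 1 and 3 and was 5.03 TPM in BM line 2 (FL minus BM 5.00, SE 0.62, limma adjusted p = 0.00153, and 5.86 without BM line 2). Gnb5, which pairs with R7 family RGS proteins, differed by 1.40 (SE 0.51, limma adjusted p = 0.0871), a call that was lost in 11 of 19 alternatives, among them leaving out any 1 FL line or BM line 1 or 3 and both other scalings.

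Among 6 receptor kinase and arrestin genes tested, Grk5, a kinase of active receptors, was 11.60, 10.09 and 10.44 TPM in BM lines and 3.29 to 4.79 TPM in FL lines (FL minus BM -1.27, SE 0.20, limma adjusted p = 0.00379), a call lost with log2(TPM + 4), where the difference was under 2-fold (-0.90). Arrb2, the beta-arrestin 2 gene, was higher in FL lines, at 430.95 to 525.73 TPM against 178.14 to 254.85 TPM in BM lines (1.23, SE 0.22, limma adjusted p = 0.00692). Among the 9 effector genes tested, 1 was called. It was Pik3r5, a regulatory subunit gene of the phosphoinositide 3-kinase that beta and gamma subunits activate, which was lower in FL lines (-1.23, SE 0.18, limma adjusted p = 0.00283). Other genes of this kinase on the list were higher in FL lines, each by less than 2-fold: Pik3r6 by 0.86 (SE 0.15) and Pik3cg by 0.51 (SE 0.14).

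Rgs7bp, which anchors R7 family RGS proteins at membranes, was called in both comparisons and was the 1 gene called of 6 other G alpha modulators tested. It stood at 26.53, 26.64 and 24.96 TPM in FL lines 1 to 3, 1.11, 8.11 and 6.07 TPM in the YS lines, and 0.90 TPM in BM line 2, and was listed at 0 in BM lines 1 and 3. The FL lines were above all others. The FL minus BM difference was 4.45 (SE 0.51, limma adjusted p = 0.00114) and the YS minus FL difference was -2.39 (SE 0.51, limma adjusted p = 0.0436). Without BM line 2 the FL minus BM difference was 4.76. The YS minus FL call was lost in 4 of 19 alternatives: without FL line 2 (limma adjusted p = 0.118), without FL line 3 (limma adjusted p = 0.122), with log2(TPM + 0.1) (limma adjusted p = 0.134) and in a fit without the BM libraries (limma adjusted p = 0.142). The R7 genes Rgs6, Rgs7 and Rgs9 were listed at 0 or stayed at most 0.31 TPM. Rgs11, also an R7 gene, was 7.83 to 12.87 TPM in BM lines, 0.49 to 20.07 TPM in FL lines and 1.87 to 6.78 TPM in YS lines.

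Receptors for chemoattractants and lipids, most of which couple to Gi, formed the longest list tested. Of its 14 tested genes, 4 were called higher and 1 lower in FL against BM lines, beside 10.3% of all genes called. The median FL minus BM difference was 0.80, beside 0.09 over all genes. P2ry12, a purinergic receptor gene, was 81.04, 57.64 and 54.08 TPM in FL lines, listed at 0 in BM lines 1 and 3, and 12.76 TPM in BM line 2 (FL minus BM 4.74, SE 0.89, limma adjusted p = 0.00769, and 6.01 without BM line 2). Gpr34, a lysophospholipid receptor gene, was 13.24 to 33.76 TPM in FL lines and at most 0.82 TPM in BM lines (4.15, SE 0.60, limma adjusted p = 0.00265). Cxcr4, the receptor of the chemokine CXCL12, ran the other way: it was 192.41, 146.75 and 183.07 TPM in the BM lines, and 24.38, 10.44 and 44.75 TPM in FL lines (-2.88, SE 0.54, limma adjusted p = 0.00759). Rgs1 and Rgs2 were lower in FL than in BM lines too. Cxcr4 was also low in YS lines (35.71, 25.39 and 10.19 TPM), whereas Rgs1 and Rgs2 had every YS line above every FL line.

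**Figure D5:**
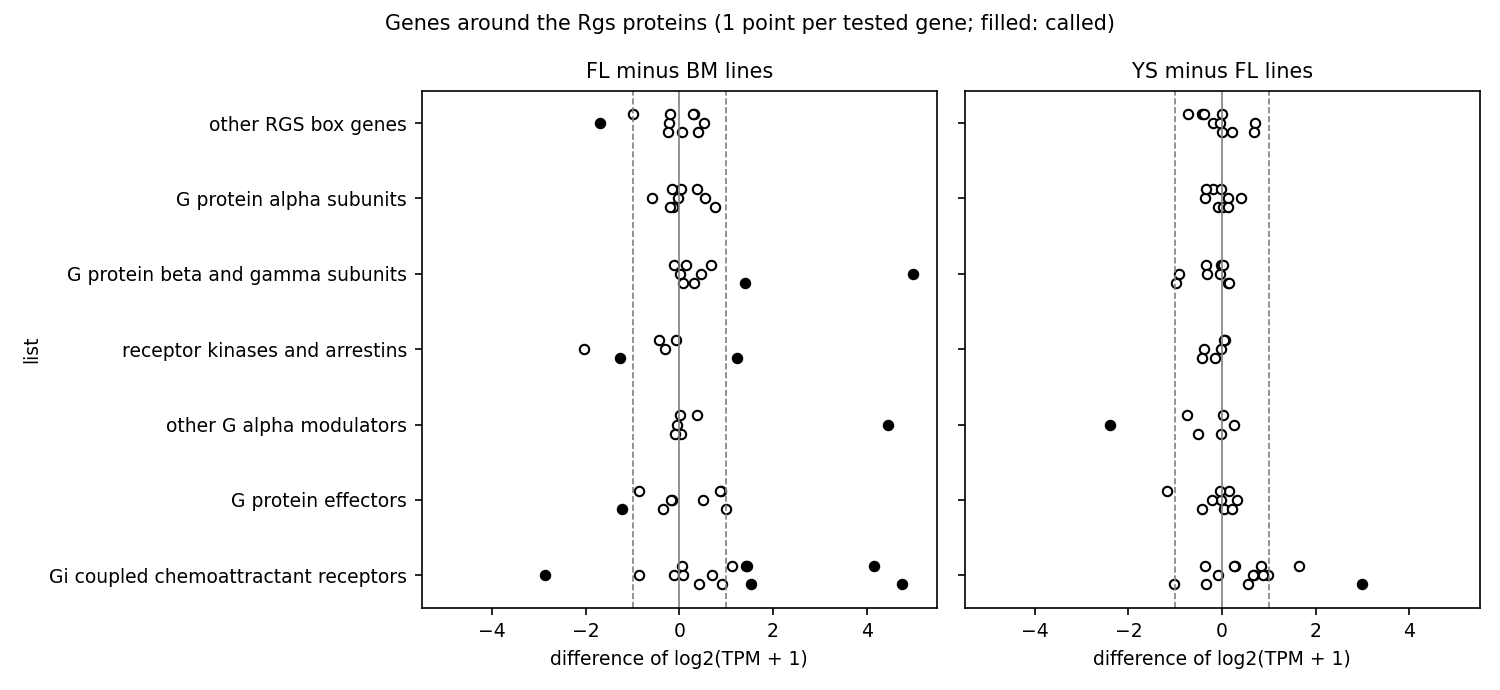
Differences of log2(TPM + 1) of the 63 tested genes of the 7 lists, in FL minus BM lines (left) and YS minus FL lines (right), 1 point per gene with filled points for genes called and dashed lines at a 2-fold change. Points are spread vertically within a list only so that they can be seen. The G alpha subunit genes stay inside the dashed lines in both comparisons, and 5 of the 14 receptor genes are filled on the left.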

How the data were processed

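Total RNA of 9 macrophage lines, 3 each from YS, FL and BM, was sequenced in bulk. The values used here are TPM as deposited by the authors, 1 column per library, which RSEM 1.3.3 gave after read trimming with Trim Galore 0.6.6 and alignment with STAR 2.7.9a, per the submitters' processing notes. The genome build and annotation behind the table are not given in the sources used here. TPM carries no read depth, so no counting intervals are given.

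The test covered the 11753 of 24411 symbols that reached 1 TPM in 3 or more libraries. It was run on log2(TPM + 1) using limma 3.58.1 in R 4.3.3 (trended empirical Bayes, group as the only term, all 9 libraries in 1 fit), with Benjamini-Hochberg adjustment over all genes tested. A call needed an adjusted p under 0.1 and more than 2-fold. The script was tested on simulated data. The members, the partner lists and the marker lists were chosen with earlier results of these data known. Grk2 and Grk3 were matched under older symbols (Adrbk1 and Adrbk2), and Ric8a was not used here.

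Named genes are all members, up to 3 called genes of each list with the largest differences, the nearest profiles, and markers at 1 TPM or more. Genes next to members on chromosome 1, and Pik3r6 and Pik3cg, were added after values were seen. Gene order and upstream windows came from RefSeq GRCm38.p6, with motifs searched on both strands. Alternatives changed the pseudocount, filter, scaling, variance trend, libraries fitted and false discovery rate, added a replicate block, or left out each line in turn. Some genes that these rules name are not reported here.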

Additional observations from a re-analysis of the deposited data

How the results depend on the processing

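Of the 8 members other than Rgs16, Rgs1, Rgs2 and Rgs18 were called in FL against BM lines in all 19 alternatives and the other 5 in none. In YS against FL lines the number called was 1 with all lines, 2 with log2(TPM + 0.1) where Rgs16, which carries no test, is the second, 0 with only the YS and FL libraries fitted, and 0 to 1 with 1 line left out (0 without YS line 1, FL line 2 or FL line 3). As a description, the members past the thresholds in YS against BM lines numbered 2, and 1 to 2 with 1 line left out (1 without BM line 3). Calls among all genes in YS against FL lines numbered 446, but 280 with log2(TPM + 4), 81 with only those libraries, 234 at a false discovery rate of 0.05, and 191 to 588 with 1 line left out (191 without FL line 3, 199 without FL line 2, 282 and 292 without BM lines 1 and 3). Calls on the partner lists in YS against FL lines numbered 2, but 4 with log2(TPM + 0.1), 1 each with log2(TPM + 4), a filter at 5 TPM and a false discovery rate of 0.05, 0 with only those libraries, and 1 to 4 with 1 line left out. As a description, 16 of the 63 partner genes lay past the thresholds in YS against BM lines, beside 12.8% of all genes. Of these, 11 were higher (beside 7.57%) and 5 lower (beside 5.22%), Rgs20 among the 5. With 1 line left out they numbered 10 to 17 (10 without BM line 1 or 3). The causes were not tested. Small differences changed sign with 1 line left out. Rgs3 in FL minus BM ran from -0.07 to 0.377 (-0.07 without FL line 1, -0.012 without BM line 2), and Rgs19 from -0.068 to 0.062 (0.002 without FL line 1, 0.062 without FL line 3, 0.051 without BM line 1). In YS minus FL, Rgs10 ran from -0.079 (without FL line 3) to 0.226 and Rgs12 from -0.222 (without YS line 3) to 0.927 (-0.055 without FL line 2). The replicate numbers mark no pairing: over 9 pairs of groups and numbers the correlations of deviations ran from -0.118 to 0.088, with none over 0.1, and samples correlated best with their own number in 5 of 18 checks. With the numbers as a replicate block, the same members were called, and the FL minus BM difference was -1.40 for Rgs1 and the YS minus FL difference 1.16 for Rgs2.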
